A study of Mus musculus with 5 samples.

Results

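The granule genes described here were 9 genes chosen by name, for what their products do in the secretory granule: the granins Chga, Chgb and Scg2, the granin-related genes Scg3, Scg5 and Vgf, the calcium sensor gene Scgn, and Ptprn and Ptprn2, which code for membrane proteins of the granule. The choice was made with earlier results of these data known. All 9 were measured in both data sets, among 22042 genes of the table of sorted cells and 27998 genes of the droplet matrix. Enteroendocrine cells (EECs) are the hormone-releasing cells of the gut epithelium. The study asked which genes the EEC types and the CCK+ cells among them express, and whether expression in sorted CCK+ cells differs between fasted and refed mice.

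For the sorted cells, all mice were Cck-Cre; R26-LSL-tdTomato, C57Bl/6J, aged 6 to 8 weeks. Each of 6 mice gave 1 library of tdTomato+ epithelial cells of the small intestine (CCK+ cells) and 1 of tdTomato- cells (CCK- cells). Mice A, B and F were fasted overnight, and mice C, D and E were refed with Ensure, a liquid diet, after a fast, so that there were 4 groups of 3 libraries. The reporter stays on after Cre has acted once, so that tdTomato marks cells that express Cck or once did. For the droplet data, tdTomato+ cells of the small intestine from 4 untreated Neurog3-Cre; R26-LSL-tdTomato mice on the C57Bl/6J background, aged 6 weeks, were pooled in 1 library. Neurog3-Cre acts in EEC progenitors, and goblet, Paneth and other epithelial cells are among the descendants it labels.

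Peptide hormones and amines of EECs are stored in dense-core granules and released when calcium rises in the cell. Granins are acidic, soluble proteins that aggregate in the trans-Golgi network, are packed into these granules together with the hormones, and are cut there into smaller peptides. Chga, which codes for chromogranin A, is the classical marker of endocrine cells of the gut, and in this epithelium granins are best known from enterochromaffin cells, the EECs that make serotonin with the enzyme encoded by Tph1.

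In the droplet data, a barcode was kept as a cell when over 1000 genes were detected in it and mitochondrial genes gave under 10% of its unique molecular identifiers (UMIs), which left 9451 cells. All barcodes were considered, not only those called as cells upstream, and the paper kept fewer cells with the same limits. The kept cells were grouped by their own UMIs per 10000. A Cck group (at least 500 of Cck) held 1246 cells, a Tph1 group (at least 10 of Tph1) 2492, a Gip group 135, a Ghrl group 151 and an Sst group 35 (each at least 500 of its hormone), and the rest 5392. A cell over several limits took the first in this order. There were 494 cells over 2 limits and 30 over 3. No doublets were removed. Of the rest, 3415 cells had at least 1000 UMIs per 10000 of 6 goblet markers and are called goblet-marked. Cells also over a limit for enterocyte, Paneth or tuft markers were left out of them. The marker limits and the finer groups used further on, some of which overlap, were set after the data had been seen. Depth differed between groups, with a median of 3226 UMIs per cell in the Tph1 group, 6296 in the Cck group and 6778 in goblet-marked cells. Free RNA is the pooled profile of barcodes with 1 to 100 UMIs, and the goblet-marked cells serve as the cell type that should lack these genes. The 6 goblet markers summed to 4654 UMIs per 10000 in goblet-marked cells. In free RNA they summed to 2206 and in the Tph1 group to 1149, also above the limit of 1000. A single library gives neither replicates nor a test, and the 95% intervals (Poisson for levels, exact Clopper-Pearson for shares of cells) cover counting error only.

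In the sorted cells, values are the authors' normalized counts, and differences were tested with limma on log2(normalized count + 1) with Benjamini-Hochberg adjustment over all 22042 genes. Cck lay between 14837 and 32592 normalized counts in the 6 CCK+ libraries and between 27.6 and 86.0 in the 6 CCK- libraries, and 7 of 7 EEC markers rose in CCK+ cells. Other cell types moved with the sort as well. Of 7 lymphocyte and immune markers, 7 rose in CCK+ cells (median log2 difference 3.33), with a summed level of 3820 to 8554 normalized counts against 368 to 974. Of 7 markers of enteric neurons and glia, 4 rose. Of 7 enterocyte markers, 5 fell, although their sum was still 122500 to 300500 in CCK+ libraries. Among CCK+ libraries, that of fasted mouse B stood apart. Its mean log2 level of the EEC markers was 0.83 below the mean of the 6 CCK+ libraries, and its Ptprc, the gene of the leukocyte marker CD45, was the highest of the 12 at 1678 normalized counts. In bulk libraries, fewer cells of a type and less RNA per cell cannot be told apart.

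The promoters of the granins are shown first, since the response element that binds CREB-family factors (CRE, TGACGTCA) is a familiar element of granin promoters. The sequences are those of RefSeq on GRCm38.p6, from 250 bases before to 50 after the RefSeq start, which is position 0. Of the 9 genes, 8 (all but Vgf) were matched, with 9 promoters. A full CRE lay in the promoters of Chgb and Scg2, and 1.79% of all 32851 promoters in the table held one. Its first 6 letters (TGACGT, on either strand, found in 7.51% of promoters) lay in those of Chga and Scg5 as well, in Scg5 at 2 places. This shorter search was added after the full matches had been seen. The 30 bases around the matches before the start are printed 5′ to 3′ on the strand of the gene, with the match in capitals.
Chga, chr12:102554886-102554915, + strand: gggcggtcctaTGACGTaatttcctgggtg
Chgb, chr2:132781559-132781588, + strand: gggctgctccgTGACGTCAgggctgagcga
Scg2, chr1:79440076-79440105, - strand: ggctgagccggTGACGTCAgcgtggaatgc
Scg5, chr2:113829248-113829277, - strand: aaggaggtaaaTGACGTtcataggggtcga

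The matches began 44 bases before the start in Chga, 72 in Chgb, 68 in Scg2 and 175 in Scg5. The other match in Scg5, on the opposite strand, lay 39 to 44 bases after the start and is not printed. By the GENCODE M21 annotation of the same build, the printed matches of Chga and Scg5 lay upstream of the gene and those of Chgb and Scg2 in an exon of a transcript that starts further upstream. A 9-letter part of the RE1 site, which REST binds to keep neuronal genes off in other cells (TTCAGCACC, both strands searched), lay on the other strand in the promoters of Scg2 and Ptprn2, and 0.371% of all promoters held it. Both stretches are printed on the strand of the gene, and the reversed match is in capitals.
Scg2, chr1:79440015-79440044, - strand: aggagctgtccGGTGCTGAAacggcccgag
Ptprn2, chr12:116485722-116485751, + strand: tggcgctgtccGGTGCTGAAgctcggccgg

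These 2 matches lay from 7 bases before to 1 after the start in Scg2 and from 13 to 21 after it in Ptprn2, both in an exon. The E-box CAGATG, searched on both strands, was in none of the 9 promoters and in 17.2% of all. A match is a run of letters only, and binding was not measured.

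All 9 granule genes were higher in CCK+ than in CCK- cells. The log2 differences ran from 5.59 to 8.36, with a median of 6.10 against 0.09 over all genes, and in each gene the lowest CCK+ library lay above the highest CCK- library. Among all genes, 19.6% rose in CCK+ cells, and 9.74% had all 6 CCK+ libraries above all 6 CCK- libraries. By fold, 9 of 9 stood among the first 128 of the 22042 genes, and Scg2 was the sixth.

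**Figure D1:**
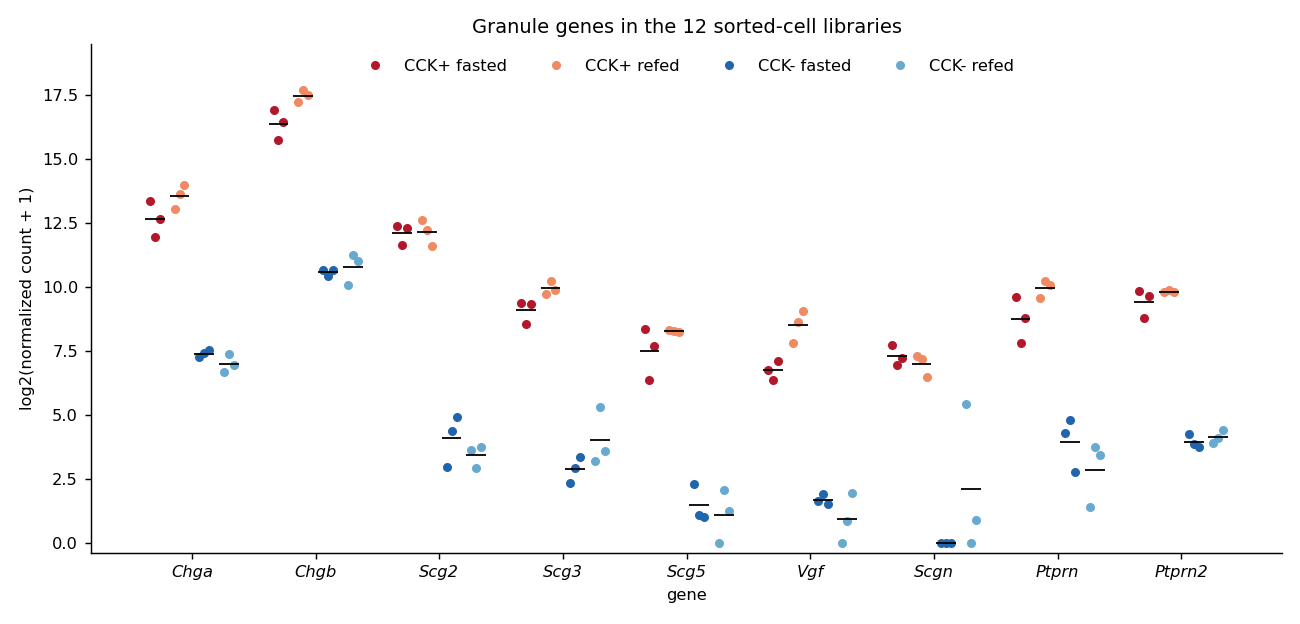
Log2(normalized count + 1) of the 9 granule genes in the 12 sorted-cell libraries; each point is 1 library, lines are group means of 3 libraries, and colors give the group. The CCK+ points (reds) lie above the CCK- points (blues) for every gene, and the Scgn point of CCK- cells nearest to the CCK+ points is refed mouse C, at 41.3 normalized counts.

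Chga (chr12:102554969-102565028, GRCm38) read 10388, 3953 and 6365 normalized counts in CCK+ cells of fasted mice A, B and F and 8413, 12744 and 16110 in those of refed mice C, D and E. In CCK- cells it read 151, 169 and 182 in fasted and 101, 164 and 121 in refed mice. Every CCK+ library was thus more than an order of magnitude above every CCK- library, and mouse B was the lowest of the CCK+ libraries. The log2 difference was 5.91 ± 0.22 (SE; 60.1-fold, adjusted p = 1.51e-10).

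Chgb (chr2:132781278-132795079) codes for chromogranin B, the most abundant of the 9 transcripts in each droplet group. Its normalized counts were 123321, 54338 and 89128 in fasted and 152468, 211125 and 188044 in refed CCK+ cells, against 1612, 1376 and 1597 in fasted and 1071, 2405 and 2092 in refed CCK- cells. It was lowest, among CCK+ cells, in fasted mouse B, and the 3 refed libraries were the 3 highest of the 12. The log2 difference was 6.24 ± 0.22 (75.7-fold, adjusted p = 1.2e-10).

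Scg2 (chr1:79434669-79440120) codes for secretogranin II, the precursor of the peptide secretoneurin. CCK+ cells held 5306, 3165 and 5063 normalized counts in fasted and 6268, 4737 and 3059 in refed mice. CCK- cells held 6.79, 19.8 and 29.1 in fasted and 11.3, 6.62 and 12.2 in refed mice. No library of either sort came near the other sort, and the log2 difference of 8.36 ± 0.30 (329-fold, adjusted p = 1.18e-10) was the largest of the 9.

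Scg3 (chr9:75643189-75684056), whose product tethers granin aggregates to the granule membrane, held 369 to 669 normalized counts in fasted and 844 to 1199 in refed CCK+ cells, against 4.05 to 9.14 and 8.10 to 38.5 in CCK- cells (log2 difference 6.06 ± 0.32, adjusted p = 6.82e-09). Scg5 (chr2:113776362-113829121) codes for 7B2, the chaperone of the prohormone convertase PC2. It held 82.1 to 328 in fasted and 300.3 to 314 in refed CCK+ cells and 0 to 3.96 in CCK- cells (6.60 ± 0.43, adjusted p = 4.48e-08). Vgf (chr5:137026392-137033351), a neurotrophin-inducible gene for a granin-like precursor of several peptides, held 107, 82.0 and 136 in fasted and 223, 396 and 533 in refed CCK+ cells, and 0 to 2.83 in CCK- cells (6.32 ± 0.37, adjusted p = 1.5e-08). For Scg5 and Vgf the CCK- libraries were at or close to 0, so that the size of the difference depends on the pseudocount.

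Scgn (chr13:23953456-23991214) codes for secretagogin, a calcium-binding EF-hand protein of endocrine cells. It held 213, 124 and 148 normalized counts in fasted and 158, 145 and 87.2 in refed CCK+ cells. In CCK- cells it was listed at 0 in all 3 fasted mice and in refed mouse D, at 0.85 in refed mouse E and at 41.3 in refed mouse C. That 1 library widened the error: the log2 difference was 6.10 ± 0.70 (adjusted p = 1.1e-05), and 6.93 without it.

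Ptprn (chr1:75247027-75264502) and Ptprn2 (chr12:116485720-117276849) code for IA-2 and phogrin, receptor-type phosphatase homologs without the usual enzyme activity that span the granule membrane and are autoantigens in type 1 diabetes. Ptprn held 774, 224 and 440 normalized counts in fasted and 751, 1201 and 1080 in refed CCK+ cells, against 5.72 to 26.7 in fasted and 1.62 to 12.2 in refed CCK- cells (log2 difference 5.95 ± 0.44, adjusted p = 1.65e-07). Ptprn2 held 917, 440 and 793 in fasted and 883, 932 and 887 in refed CCK+ cells, against 12.2 to 18.0 and 13.8 to 20.2 (5.59 ± 0.19, adjusted p = 1.04e-10). Ptprn2 showed the smallest difference of the 9 genes, and its CCK- libraries were all within 12.2 to 20.2.

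The other genes of the granule followed the 9 less closely. Of 31 genes of prohormone processing, granule content, granule formation, granule Rab proteins and fusion, 26 rose in CCK+ cells, 1 fell and 4 did not pass the test (median log2 difference 2.78, beside the 0.09 of all genes). The largest rises were those of Unc13a, a priming factor of exocytosis (6.88), Pcsk1n, which codes for the granin-like proSAAS (6.60), and Resp18, a granule lumen gene related to Ptprn (5.92). The gene that fell was Ccdc186, which acts in granule formation (-1.14). By group, 5 of 5 processing genes, 3 of 3 genes of content and loading, 2 of 3 of formation, 8 of 10 Rab genes and partners, and 8 of 10 genes of priming and fusion rose. Beside these differences, the EEC markers had a median of 6.52 and the immune markers of 3.33, and the part of the other cells in them was not tested. In the droplet data, which came from another sort, the 7 immune markers summed to 0.928 UMIs per 10000 in the Cck and 1.56 in the Tph1 group. They summed to 1.51 in goblet-marked cells and 2.75 in free RNA.

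Refeeding was compared with fasting next. In CCK+ cells, 0 of 9 granule genes passed the limma test, where 2.55% of all genes changed, and 3 of 9 (Chga, Chgb and Vgf) had an unadjusted p under 0.05, which 16.9% of all genes had. The median log2 difference, refed minus fasted, was 0.86 over the 9 genes and 0.01 over all genes. It was 0.52 over the 31 other granule genes (0 passed, 11 at an unadjusted p under 0.05) and 0.51 over the 7 EEC markers.

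Vgf showed the largest difference of the 9. Its 3 refed CCK+ libraries (223 to 533 normalized counts) all lay above the 3 fasted ones (82.0 to 136), with a log2 difference of 1.75 ± 0.52 (3.37-fold, adjusted p = 0.0945). Refed and fasted CCK+ libraries were also apart for Chgb, at 1.11 ± 0.31 (2.16-fold, adjusted p = 0.0814), and for Scg3, at 0.86 ± 0.46 (adjusted p = 0.368). Among all genes, 10.8% had all 3 refed above all 3 fasted CCK+ libraries. For Chga the groups overlapped, since fasted mouse A lay above refed mouse C, and the difference was 0.91 ± 0.31 (1.88-fold, adjusted p = 0.142). Ptprn had a difference of 1.22 ± 0.62, Scg5 0.80 ± 0.60 and Ptprn2 0.40 ± 0.27, each with overlapping groups and an adjusted p of 0.343 or more. Scg2 had 0.03 ± 0.42 and Scgn -0.32 ± 0.99, neither further from 0 than its error. The spread was estimated over libraries of both sorts, so that the Scgn error also includes CCK- cells of refed mouse C.

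The library of fasted mouse B bore on these values. It was the lowest of the fasted CCK+ libraries for 9 of 9 granule genes. Without it, the log2 difference was 0.56 for Chga, 0.80 for Chgb and 1.57 for Vgf, and Scg2 turned to -0.21. After every CCK+ library had been centred on its EEC markers, the values were 0.52 for Chga, 0.72 for Chgb and 1.36 for Vgf, and 0 of 9 passed. This alternative was chosen once mouse B had been seen, and it was fitted to the CCK+ libraries alone. Vgf alone passed under 1 alternative, a pseudocount of 10 (1.67, adjusted p = 0.0195), and its adjusted p ranged from 0.0195 to 0.356 over all alternatives. Paneth markers had a median log2 difference of 1.35 between refed and fasted CCK+ libraries, with 0 of 5 past the test, 1 of 4 crypt cycling markers and 1 of 7 neuron and glia markers rose, and the immune markers had a median of 0.15 (0 of 7 passed). Their part in the result was not tested.

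In CCK- cells, 0 of 9 granule genes passed, where 1.23% of all genes changed, and 1 of 9, Scg3, had an unadjusted p under 0.05, as did 12% of all genes (log2 difference 1.15 ± 0.46, adjusted p = 0.312). Scg3 read 4.05, 6.65 and 9.14 normalized counts in fasted and 8.10, 38.5 and 10.9 in refed CCK- cells, so that the groups overlapped and mouse D stood highest. Chga had a difference of -0.40 ± 0.31, Chgb 0.20 ± 0.31 and Scg2 -0.66 ± 0.42. Scgn was listed at 0 in all fasted CCK- libraries, so that its fitted value depends on the pseudocount. It did not pass, and no fold is given for it.

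The difference between the refeeding effects of CCK+ and CCK- cells was tested as an interaction. It passed for 0 of 9 granule genes, and for 0.00454% of all genes, which is 1 gene. At an unadjusted p under 0.05 there were 3 of 9 and 6.25% of all genes. Vgf had the largest positive interaction (2.52 ± 0.73 on the log2 scale, adjusted p = 0.637), followed by Ptprn (2.31 ± 0.88, adjusted p = 0.739), and Chga had 1.31 ± 0.43 (adjusted p = 0.691). That of Scgn, -2.41 ± 1.40 (adjusted p = 0.795), rests on the fasted CCK- libraries at 0 and depends on the pseudocount. The CCK- values behind those of Vgf and Ptprn were few normalized counts.

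**Figure D2:**
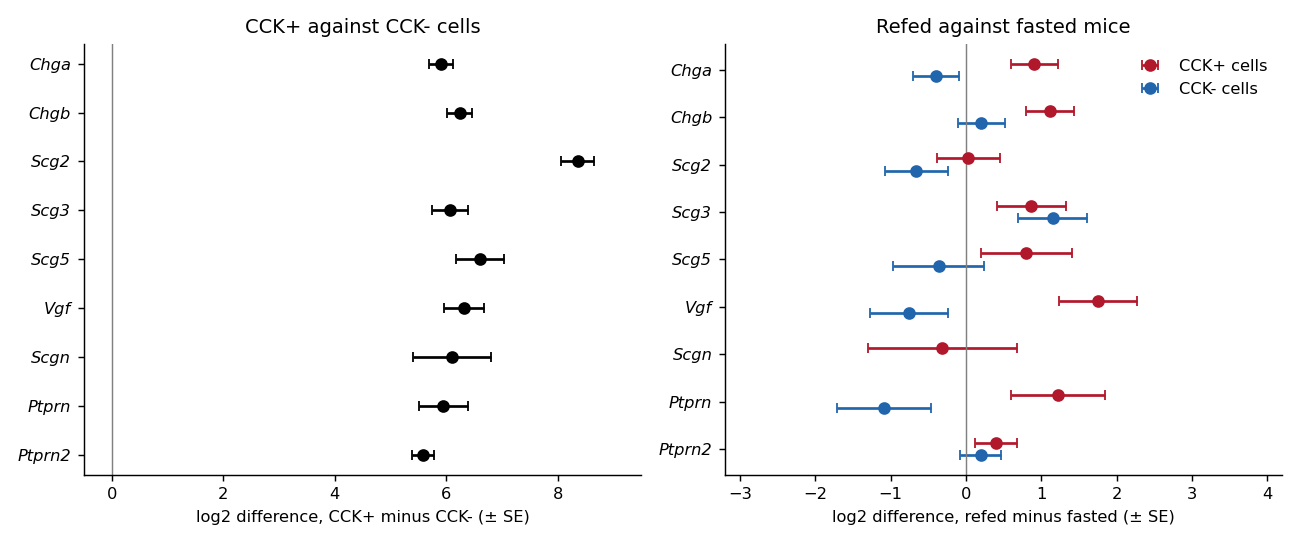
Log2 differences of the 9 granule genes with their standard errors, on the log2(normalized count + 1) scale; the left panel gives CCK+ minus CCK- over 12 libraries, and the right panel refed minus fasted in CCK+ (red) and CCK- (blue) cells, 3 libraries a group. All points on the left lie between 5.59 and 8.36, whereas the right panel spans -1.09 to 1.75, without Scgn of CCK- cells, which was listed at 0 in all 3 fasted libraries, and none of its differences passed the test.

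Among the Neurog3-lineage cells, transcripts of the 9 genes were most abundant in the Tph1 group. They made up 418 of 10000 UMIs there, 135 in the Cck group, 77.2 in the Gip group, 56.6 in the Sst group and 51.2 in the Ghrl group. The rest held 14.7 and goblet-marked cells 13.2. Each gene was above its goblet-marked level in all 5 hormone groups, with intervals that overlapped for Vgf in the Sst and Ghrl groups and for Ptprn2 in the Sst group. The group that ranked highest was not the same for all genes. Chga, Chgb, Vgf and Ptprn were highest in the Tph1 group, Scg3 and Scg5 in the Sst group, Scg2 in the Cck group, Scgn in the Ghrl group and Ptprn2 in the Gip group. These were descriptions of 1 library, and the highest group of each gene was the same in all 8 other ways of filtering, grouping or scaling the cells.

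**Figure D3:**
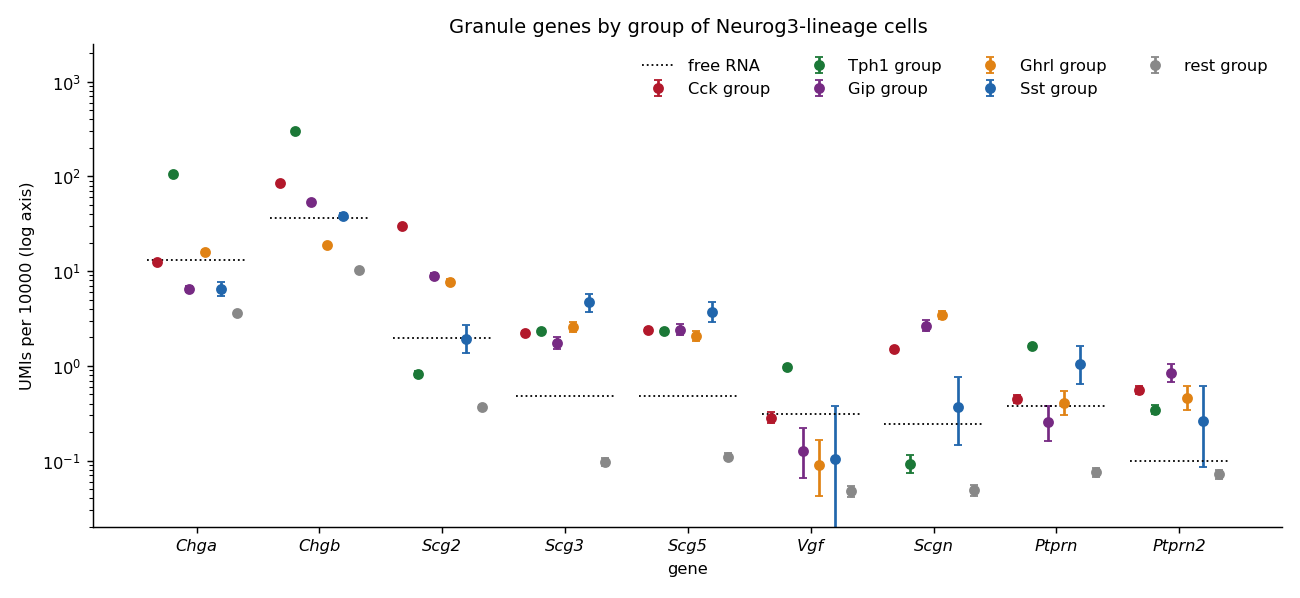
Summed UMIs per 10000 (log axis) of each granule gene in the 6 groups of Neurog3-lineage cells, with 95% Poisson intervals; the dotted line is the level in free RNA. Chga and Chgb reach 107 and 304 UMIs per 10000 in the Tph1 group, whereas Scg2 (0.818) and Scgn (0.0928) of that group lie below their free RNA lines. Also below the line are Chga in the Cck, Gip and Sst groups, Chgb in the Ghrl group and Scg2 in the Sst group. The same holds for Ptprn in the Gip group and for Vgf in every hormone group but Tph1.

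Chgb had a UMI in 99.9% of Cck cells and 100% of the cells of the other hormone groups, but also in 85.5% of goblet-marked cells. It held 304 UMIs per 10000 in the Tph1 group (95% interval 302 to 305), where it was the fourth most abundant of all genes, then 85.0 in the Cck, 53.7 in the Gip, 38.0 in the Sst and 18.6 in the Ghrl group. At 2000 UMIs per cell, 100% of Tph1, 98.6% of Cck and 90.7% of Ghrl cells had a UMI of Chgb. The share was 47.8% in goblet-marked cells, where the level was 9.17 UMIs per 10000 against 36.1 in free RNA. Within the Cck group it was uneven, with quartiles of 21.2 and 136 UMIs per 10000 around a median of 49.8.

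Chga was less even across the hormone groups. It held 107 UMIs per 10000 in the Tph1 group, 15.8 in the Ghrl, 12.4 in the Cck and 6.50 in both the Gip and the Sst group. Free RNA held 13.2, above the Cck, Gip and Sst levels. The Gip and Sst intervals (5.99 to 7.03 and 5.41 to 7.75) overlapped. At 2000 UMIs per cell, 99.8% of Tph1 cells but 66.0% of Cck and 45.2% of Gip cells had a UMI of Chga, and 28.4% of goblet-marked cells did. The unthinned shares were 100%, 89.5%, 74.1% and 61.9%.

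The ratio of both chromogranins therefore differed between cell groups. There were 1.18 UMIs of Chgb for 1 of Chga in the Ghrl group (95% interval 1.11 to 1.26), 2.85 in the Tph1 group (2.83 to 2.87), 5.84 in the Sst group (4.82 to 7.12), 6.85 in the Cck group (6.71 to 6.99) and 8.27 in the Gip group (7.6 to 9.0). Goblet-marked cells had a ratio of 2.75 and free RNA 2.73, both close to that of the Tph1 group. The ratios are of summed UMIs and were not corrected for free RNA. The median Gip and Sst cell held 1.89 and 2.29 UMIs of Chga per 10000, beside 1.24 in the median goblet-marked cell. The finer groups spread the ratio further. It was 9.04 in the 495 Cck cells that were over no other limit and had under 20 UMIs per 10000 of Gcg and of Pyy (Cck-only cells), 11.3 in the 339 Cck cells with Gcg or Pyy that were not over the Tph1 limit, and 3.59 in cells with both Cck and Tph1. It was 2.77 in Tph1 cells with Tac1, which codes for substance P, but 6.95 in Tph1 cells rich in Sct, the secretin gene. Chga held 182 UMIs per 10000 in the former and 53.1 in the latter, while Chgb held 503 and 369.

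Scg2 set the Cck group apart from the Tph1 group. It held 29.8 UMIs per 10000 in the Cck group (95% interval 29.4 to 30.2), 8.93 in the Gip, 7.70 in the Ghrl and 1.94 in the Sst group, but 0.818 in the Tph1 group, where free RNA held 1.98 and goblet-marked cells 0.307. All 1246 Cck cells had a UMI of Scg2. At 2000 UMIs per cell, 97.9% of Cck and 11.8% of Tph1 cells had one, beside 5.04% of goblet-marked cells. For each UMI of Chga there were 2.40 of Scg2 in the Cck group and 0.00768 in the Tph1 group. Cells over both limits held 25.2 UMIs of Scg2 per 10000, less than the 28.8 of Cck-only cells. Their Chga was 28.1 against 6.40.

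Scg3 and Scg5 were the most even of the soluble members. Scg3 held 4.67 UMIs per 10000 in the Sst group (3.75 to 5.74), 2.58 in the Ghrl, 2.31 in the Tph1, 2.21 in the Cck and 1.75 in the Gip group, and the Tph1 and Cck intervals overlapped. Scg5 held 3.72 in the Sst group (2.91 to 4.69), 2.41 in the Gip, 2.40 in the Cck, 2.35 in the Tph1 and 2.07 in the Ghrl group. The Gip, Cck and Tph1 intervals of Scg5 overlapped. The Sst levels rest on 35 cells, with 89 UMIs of Scg3 and 71 of Scg5. In goblet-marked cells Scg3 held 0.0918 and Scg5 0.0997 UMIs per 10000.

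Vgf was the rarest of the 9 in 5 of the 6 groups, all but the Tph1 group. It held 0.961 UMIs per 10000 in the Tph1 group (0.900 to 1.02), 0.284 in the Cck, 0.127 in the Gip, 0.105 in the Sst and 0.0890 in the Ghrl group, with 0.314 in free RNA and 0.0482 in goblet-marked cells. The Gip, Sst and Ghrl levels rest on 12, 2 and 10 UMIs, and their intervals overlapped. At 2000 UMIs per cell, 17.3% of Tph1, 5.70% of Cck and 1.05% of goblet-marked cells had a UMI of Vgf.

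Among the hormone groups, Scgn was lowest in the Tph1 group, where Chga was highest. It held 3.43 UMIs per 10000 in the Ghrl group (3.09 to 3.79), 2.67 in the Gip, 1.49 in the Cck and 0.367 in the Sst group, and 0.0928 in the Tph1 group, where 89 UMIs were counted in 2492 cells. At 2000 UMIs per cell, 45.7% of Ghrl, 35.6% of Gip, 24.6% of Cck and 1.19% of Tph1 cells had a UMI of Scgn, beside 0.527% of goblet-marked cells. Among Cck cells, those with Ghrl held 2.16, those with Gcg or Pyy 2.06, Cck-only cells 1.25 and those with Tph1 0.923.

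The granule membrane pair also split by cell group. Ptprn held 1.6 UMIs per 10000 in the Tph1 group, 1.05 in the Sst, 0.446 in the Cck, 0.409 in the Ghrl and 0.254 in the Gip group, and the Tph1 and Sst intervals (1.53 to 1.69 and 0.640 to 1.62) overlapped. Ptprn2 held 0.847 in the Gip, 0.553 in the Cck, 0.463 in the Ghrl, 0.346 in the Tph1 and 0.262 in the Sst group. There were 4.64 UMIs of Ptprn for 1 of Ptprn2 in the Tph1 group (4.11 to 5.24), 0.807 in the Cck group (0.701 to 0.928) and 0.300 in the Gip group (0.182 to 0.479). Within the Tph1 group, Ptprn2 was highest in cells with Tac1, at 0.782 against 0.223 in those rich in Sct.

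**Figure D4:**
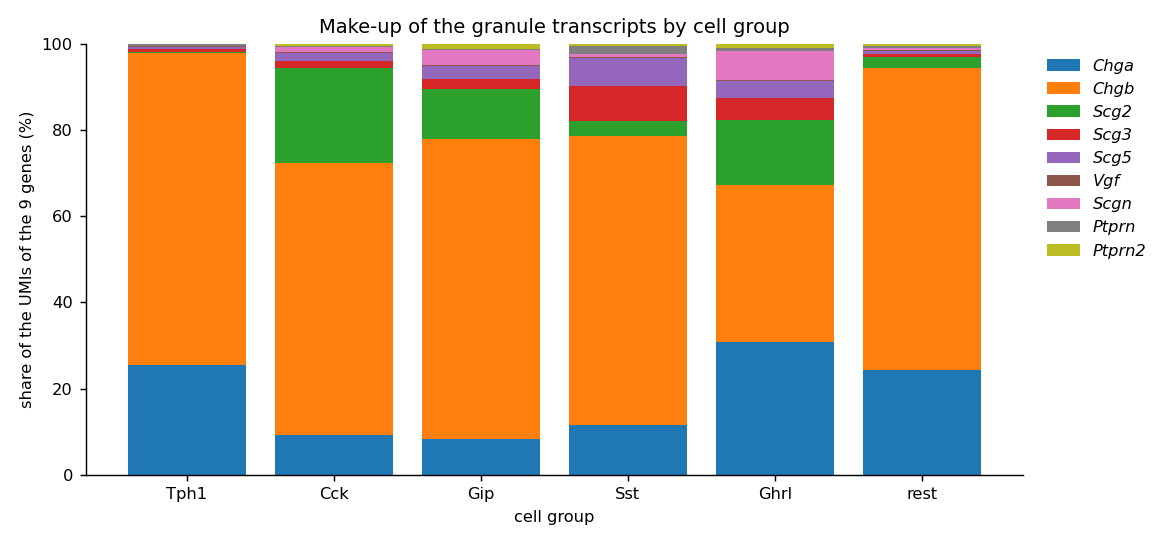
Share in percent of the UMIs of the 9 granule genes that each gene contributed, by group of Neurog3-lineage cells. Chga and Chgb together fill nearly the whole bar of the Tph1 group, whereas Scg2 gives 22.1% in the Cck group, Scg3 and Scg5 widen in the Sst and Ghrl groups, and Scgn gives 6.69% in the Ghrl group but 0.649% in the Sst group.

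The make-up of the granule transcripts followed from these levels. Chgb gave 72.5% of the UMIs of the 9 genes in the Tph1 group, 63.2% in the Cck group and 36.4% in the Ghrl group. Chga gave 25.4%, 9.22% and 30.9%, and Scg2 0.196%, 22.1% and 15.0%. Single cells held several of the genes at once. At 2000 UMIs per cell, at least 4 of the 9 were detected in 60.6% of Cck, 43.0% of Tph1, 48.1% of Gip and 58.9% of Ghrl cells, and in 1.26% of goblet-marked cells.

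Goblet-marked cells held 13.2 UMIs of the 9 genes per 10000 when summed, and the summed level of each gene there was below that in free RNA. Summed, they held 3.33 of Chga and 9.17 of Chgb, but the median goblet-marked cell held 1.24 and 2.72. The goblet-marked level was 0.129 to 0.254 of the free RNA level for 8 of the 9 genes and 0.771 for Ptprn2, whose free RNA level rests on 20 UMIs. Beyond goblet-marked cells, the 68 cells of the rest with tuft markers held 8.67 UMIs of Chga and 19.3 of Chgb per 10000 when summed, but their median cell held 1.44 and 2.80, near the 1.24 and 2.72 of goblet-marked cells. The 195 with Paneth markers held 1.88 and 3.99 when summed.

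The remaining granule genes of the droplet data were given as sums. The 5 processing genes summed to 23.5 UMIs per 10000 in the Cck, 22.6 in the Gip, 18.5 in the Ghrl, 18.2 in the Tph1 and 15.4 in the Sst group, against 1.04 in goblet-marked cells. The 3 genes of content and loading, Resp18 and the amine transporters Slc18a1 and Slc18a2, summed to 9.47 in the Tph1 and 4.14 in the Cck group. Of these sums, Resp18 gave 6.05 and 3.16. The 10 genes of priming and fusion summed to 12.4 and 6.35 in the same groups. The 3 genes of granule formation summed to 2.19 in the Tph1, 1.52 in the Sst, 1.14 in the Cck, 1.11 in the Ghrl and 0.942 in the Gip group, with 1.37 in goblet-marked cells. The sum of the 10 Rab genes and partners, too, did not follow the hormone groups, with 5.07 in the Tph1, 3.28 in the Cck group and 5.30 in goblet-marked cells. Single genes of this sum went both ways. Rab27b held 1.25 in the Tph1, 0.627 in the Cck group and 2.90 in goblet-marked cells, whereas Rab3c held 1.28, 0.403 and 0.04985.

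For each gene, the genes with the most similar log2 levels over the 6 groups were found by Pearson's r of log2(UMIs per 10000 + 0.1), among 9767 genes. With 6 groups of 1 library, many genes reach a high r, and the values are descriptions. Chga was most alike to Hnrnph2 (0.991) and Eif5b (0.990), Chgb to Kdm7a (0.994) and Dusp16 (0.991), and 49 and 76 genes reached 0.95 with them. Scg2 stood more alone, with Pgm2l1 (0.968) and Ctnnal1 (0.955) among 3 genes at 0.95 or more, and so did Scgn, with 0610040J01Rik (0.986) and Ctnnal1 (0.973) among 5. Scg3 was most alike to Pcm1 (0.997) and Gucy2c (0.997), and Scg5 to Psip1 (0.997) and Map1b (0.996). Vgf was most alike to Oaz1 (0.995) and Scand1 (0.992), Ptprn to Trappc3 (0.995) and 1700037C18Rik (0.995), and Ptprn2 to Grsf1 (0.984) and Zfp945 (0.984).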

How the data were processed

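The 9 genes and all gene lists were chosen with earlier results of these data known. For the sorted cells, the authors trimmed reads with Trim Galore 0.6.7, quantified them with Salmon 1.6.0 on the GRCm39 transcriptome, summed them per gene and divided them by DESeq2 normalization factors. The deposited signal values are these normalized counts, and they sum to 7061155 to 11371114 per library, which is not a depth in reads, so that the read depth is unknown. The deposited droplet values are UMI counts per gene and barcode from Cell Ranger 2.0.1 on mm10, without normalization, for all 737280 barcodes, all of them distinct. The droplet library held 108489965 UMIs. Each of the 4 bulk titles names CCK+ cells, but groups were taken from the cell type labels, which the table follows and which give both sorts. The letter in a library's name was taken as the mouse.

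Bulk values were fitted with limma 3.58.1 in R 4.3.3 on log2(normalized count + 1), with 1 mean per group, a mean-variance trend, 8 residual degrees of freedom and no filter, and an adjusted p under 0.05 passed. Fold changes on this scale understate changes of low genes. Libraries of CCK+ and CCK- cells with the same letter correlated at 0.0463 to 0.065 after removal of group means, and others at -0.0455 to -0.00973. The test was also run on data simulated with independent normal noise and with shifts in well-expressed genes only, which does not cover low genes. UMIs (Python 3.11.15 with numpy 2.4.6 and scipy 1.17.1) were summed per group and scaled to 10000, and shares were also taken after each cell was thinned to 2000 UMIs, which left out 58 cells. GemCode libraries count 1 end of each transcript, so that UMI levels were compared between genes, whereas normalized counts were not. Named genes were the 9 genes, the 3 largest rises and falls among 31 other granule genes, and the 2 most alike genes of each, among those with at least 200 UMIs. Tac1 (at least 10 UMIs per 10000), Gcg or Pyy (at least 20) and Sct (at least 1000) defined finer groups. Alternatives were another pseudocount, filter or scaling, no trend, left-out libraries, the mouse as a block, single states or sorts, and for cells other filters, limits and scalings. Protein sequences were not used here.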

Additional observations from a re-analysis of the deposited data

How the results depend on the processing

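The 9 granule genes passed as higher in CCK+ cells in every alternative run (pseudocount, filter, scaling, no trend, each library left out, the mouse as a block, single feeding states), and the count stayed at 9 to 9 when any 1 library was left out. With the mouse as a replicate block the count was 9, and 0 for the interaction, so that the pairing changed no call. For refed against fasted mice, the count in CCK+ cells was 0 in all settings but a pseudocount of 10, where it was 1 (Vgf), and 0 in all settings for CCK- cells and the interaction. No count changed without 1 library (0 to 0). Some directions turned in values that had not passed. Scg2 in CCK+ cells ranged from -0.21 (without refed mouse C; also -0.21 without fasted mouse B) to 0.31 with 1 library left out, and was -0.36 after centring on EEC markers. In CCK- cells, with 1 library left out, Chgb ranged from -0.026 (without refed mouse D) to 0.56 and Scg5 from -0.84 to 0.18 (without refed mouse C). In the interaction, Scg3 ranged from -0.70 to 0.35 (without CCK- refed mouse D) and was 0.17 at a pseudocount of 10, and Ptprn2 ranged from -0.11 (without CCK+ fasted mouse B) to 0.41. The cause was not tested. A pseudocount of 10 lowered the differences of the genes near 0 in CCK- cells, to 3.51 for Scgn, 4.16 for Vgf and 4.39 for Scg5. The median of all genes, CCK+ minus CCK-, was 0.09, 0.35 with libraries scaled to the same sum and -0.14 with quantile normalization, and that of refed minus fasted CCK+ cells 0.01, 0.20 and 0. Over all genes, 561 changed with refeeding in CCK+ cells, 119 without the trend and 850 with quantile normalization. With 1 library left out there were 103 to 876. With the 6 CCK+ libraries alone the count was 0, and it was 10 when these 6 were also centred on EEC markers. In CCK- cells the 272 became 66 without the trend, 165 with quantile normalization, 63 in the 6 CCK- libraries alone and 79 to 268 with 1 library left out. In the droplet data, the counts of genes highest in each group were the same in all 8 alternatives, and of all levels 263 stayed within their counting interval and 169 moved out of it. Levels were 0.368 to 2.31 times those reported with limits doubled, and 0 to 1.15 times with limits halved and 0 to 1.41 times after thinning. The zeros were those of Vgf and Ptprn2 in the Sst group, which rest on 2 and 5 UMIs.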
